A study of Mus musculus with 2 samples.

Results

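The 10 genes described here encode receptors of natural killer (NK) cells, Ncr1, Klrb1c, Klre1, Klrd1, Klrk1, Klrc1, Klrc2, Klra4, Klra7 and Klrg1. They were chosen by symbol, and all 10 were among the 32285 genes counted. Their counts came from CD45+ cells of subcutaneous CT26 tumours, a mouse colorectal carcinoma line grown in BALB/c mice, sequenced as 2 droplet single-cell libraries. From the age of 5 weeks the mice ate a normal diet (Control) or, at equal calories, an arginine-deficient one (Arg), for 1 week before the tumour cells were injected, and tumours were collected on day 20. Only the series' design text ties the name Arg to the arginine-deficient diet, and the labels name no diet. The number of mice behind a library is not stated in the sources used here. With 1 library per diet, every difference is between these libraries and has no replicate check, and no test was made.

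NK cells kill without rearranged antigen receptors, and they weigh signals from activating and inhibitory surface receptors. Most of these receptors in the mouse are C-type lectin-like proteins encoded side by side in the NK gene complex, and the Ly49 (Klra) genes among them are switched on in some NK cells and not in others, so that each cell carries its own set. CD94, the product of Klrd1, pairs with NKG2A (Klrc1), an inhibitory receptor for Qa-1, or with NKG2C (Klrc2), its activating relative. NKp46 (Ncr1) is an immunoglobulin-like activating receptor and the usual mark of NK cells and their innate lymphoid kin, whereas NKG2D (Klrk1) and the CD94 pairs also appear on activated CD8 T cells.

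In GRCm38, Ncr1 (ENSMUSG00000062524) lies on chromosome 7, 4337724–4345164, plus strand. The other 9 genes lie on chromosome 6, from Klrg1 (ENSMUSG00000030114; 122270596–122282882, minus strand) to Klra7 (ENSMUSG00000067599; 130218605–130233322, minus strand). Klre1 (ENSMUSG00000050241; 129577905–129585827, plus strand), Klrd1 (ENSMUSG00000030165; 129591782–129598775, plus strand), Klrk1 (ENSMUSG00000030149; 129610323–129623864, minus strand), Klrc2 (ENSMUSG00000052736; 129647496–129660689, minus strand) and Klrc1 (ENSMUSG00000030167; 129666015–129678973, minus strand) are neighbours. Klrb1c (ENSMUSG00000030325; 128778485–128789215, minus strand) overlaps the gene Gm44511 on the same strand, and Klra4 (ENSMUSG00000079852; 130043731–130067271, minus strand) lies between the Klrc and Klra7 genes. A tag that maps inside the overlap of Klrb1c and Gm44511 cannot be assigned by strand.

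Some of these genes are near copies of each other, and the 3′ tags counted here fall near transcript ends. Among all windows of 50 bases in the last 500 bases of the annotated transcripts, 43.5% of those of Klrc1 and 15.2% of those of Klrc2 also occurred in another gene of the family. The share was 6.26% for Klrb1c, with Klrb1a and Klrb1b, and 4.66% for Klra4, with Klra1. No window was shared for Ncr1, Klre1, Klrd1, Klrk1, Klra7 or Klrg1. The split of counts between Klrc1 and Klrc2 is therefore uncertain. BALB/c mice are known to carry a smaller Ly49 set than the C57BL/6 reference strain and to lack the Klra4 and Klra8 counterparts, so counts listed under Klra4 may come from a related gene, which was not tested.

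Promoter sequences are shown for 6 genes that the results turn on, so that the genes that differed between libraries (Klre1, Klra7) can be set beside the NK-restricted Ncr1 and the paired Klrc1 and Klrc2. They are the 250 bases before a RefSeq transcript start in GRCm38.p6, 5′ to 3′ on the gene's strand, with the letters TGTGGT, a core bound by Runx factors, or its reverse complement ACCACA in capitals. The stretches are chr7:4337474-4337723 (plus strand) for Ncr1, chr6:129577963-129578212 (plus) for Klre1, chr6:129678974-129679223 (minus) for Klrc1, chr6:129660597-129660846 (minus) for Klrc2, chr6:130067272-130067521 (minus) for Klra4 and chr6:130233323-130233572 (minus) for Klra7.
Ncr1: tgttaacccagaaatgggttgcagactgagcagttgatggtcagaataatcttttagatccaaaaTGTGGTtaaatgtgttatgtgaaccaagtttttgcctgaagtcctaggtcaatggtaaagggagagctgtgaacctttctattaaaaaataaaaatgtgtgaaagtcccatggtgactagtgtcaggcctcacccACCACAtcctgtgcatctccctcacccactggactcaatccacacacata
Klre1: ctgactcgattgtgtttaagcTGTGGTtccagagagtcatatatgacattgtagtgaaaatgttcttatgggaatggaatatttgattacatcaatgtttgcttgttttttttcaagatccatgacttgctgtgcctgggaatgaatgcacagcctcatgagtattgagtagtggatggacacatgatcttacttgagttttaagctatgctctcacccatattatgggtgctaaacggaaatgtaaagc
Klrc1: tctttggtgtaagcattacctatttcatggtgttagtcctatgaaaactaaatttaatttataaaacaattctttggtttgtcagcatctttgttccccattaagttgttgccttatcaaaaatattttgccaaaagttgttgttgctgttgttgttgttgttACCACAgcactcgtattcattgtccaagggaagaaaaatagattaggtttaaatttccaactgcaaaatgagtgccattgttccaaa
Klrc2: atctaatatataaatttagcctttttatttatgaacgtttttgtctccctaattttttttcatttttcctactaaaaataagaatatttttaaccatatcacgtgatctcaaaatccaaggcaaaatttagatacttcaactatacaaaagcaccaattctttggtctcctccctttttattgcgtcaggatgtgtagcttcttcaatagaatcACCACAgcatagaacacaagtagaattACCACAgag
Klra4: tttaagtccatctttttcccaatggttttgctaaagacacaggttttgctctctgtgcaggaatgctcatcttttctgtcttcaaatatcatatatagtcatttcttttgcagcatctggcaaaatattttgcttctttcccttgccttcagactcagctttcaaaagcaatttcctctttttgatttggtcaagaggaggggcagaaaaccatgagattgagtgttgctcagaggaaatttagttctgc
Klra7: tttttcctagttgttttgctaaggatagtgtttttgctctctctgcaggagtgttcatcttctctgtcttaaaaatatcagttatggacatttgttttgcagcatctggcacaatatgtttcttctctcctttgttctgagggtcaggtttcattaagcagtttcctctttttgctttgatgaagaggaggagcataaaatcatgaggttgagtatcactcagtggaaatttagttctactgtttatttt

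RefSeq promoters were found for 8 of the 10 genes, Klrd1 and Klrg1 being without an entry. The Runx core, searched on both strands, was present in a promoter of 6 of the 8 (Ncr1, Klrb1c, Klre1, Klrk1, Klrc1 and Klrc2). Counted by promoter, it was in 8 of their 12, the second promoter of Klre1 being without it, and in 4614 of the 32851 promoters of equal length. It was not among these letters in Klra4 and Klra7, whose shown promoters were 74.2% identical to each other. A T-box core (AGGTGT or ACACCT) was in 0 of the 12 and 3887 of all promoters, and an Ets core (GGAAGT or ACTTCC) was in 1 of the 12, that of Klrb1c, and in 6485 of all promoters. The 2 promoters of Ncr1 overlap each other, as do the 2 of Klrc2. The same Runx letters therefore count in both promoters of each of these genes. Within a promoter no match overlapped another, and a match is a description of the sequence only.

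After filtering and removal of called doublets, 12928 Arg and 12736 Control cells remained, with medians of 8278 and 9994 unique molecular identifiers (UMIs) per cell. The libraries shared 44 barcodes, about 0.3% of each, none of them NK-like in both. Cell classes were named from marker genes that exclude the 10 receptors, and the names mean "like". NK-like cells numbered 1421 (10.99% of cells; 95% exact interval 10.5 to 11.5) in Arg and 734 (5.76%; 5.36 to 6.18) in Control. CD8 T-like cells numbered 1006 and 1493, CD4 T-like cells 261 and 144, regulatory T-like cells 248 and 141, gamma-delta T-like cells 22 and 9, and plasma-like cells 62 and 33. Another 6 lymphoid clusters with 445 and 535 cells took no name. Levels are given as CPM, the UMIs of a gene per 1000000 UMIs summed over a class in a library. Intervals are 95% and cover counting error only, not the variation between cells, mice or preparations.

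Markers of other cell types were not all absent from the NK-like class, and their levels differed by type. In its 5 clusters Cd3e ran from 2.87 to 33.1 CPM, and the B cell gene Ms4a1 had no UMI. Summed over their marker lists, T cell markers stood at 424 CPM in Arg and 395 in Control, macrophage markers at 287 and 337, monocyte markers at 1705 and 1921, and neutrophil markers at 9.14 and 48.6. With both libraries together and no thinning, the myeloid gene Lyz2 was found in 73.9% (L1) to 85.2% (L9) of a cluster's cells. C1qa was found in 39.1% (L0) to 56.8% (L14). The part of myeloid RNA in this class was not tested. Cluster L0 (710 and 277 cells) had the highest Klf2, a gene of circulating lymphocytes, and Eomes at 364 and 409 CPM. Cluster L1 (322 and 269 cells) combined Gzma with Gzmc. Cluster L2 (290 and 108 cells) was low in Eomes (67.1 and 48.2 CPM) and high in Rora (712 CPM in both libraries). Cluster L9 (76 and 59 cells) was cycling, and the small L14 (23 and 21 cells) had the highest Gzmc (11466 and 14119 CPM).

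Across the lymphoid classes, the 10 genes fell into 3 patterns. Ncr1, Klrb1c, Klra4 and Klra7 were highest in NK-like cells by a wide margin, Klrd1, Klrk1, Klrc1 and Klrc2 were high in both NK-like and CD8 T-like cells, and Klrg1 was highest in regulatory T-like cells. Klre1 was highest in NK-like cells with CD8 T-like cells next. Of the 10, 6 were higher in NK-like than CD8 T-like cells in Arg and 7 in Control, Klrk1 being the one that changed order.

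**Figure D1:**
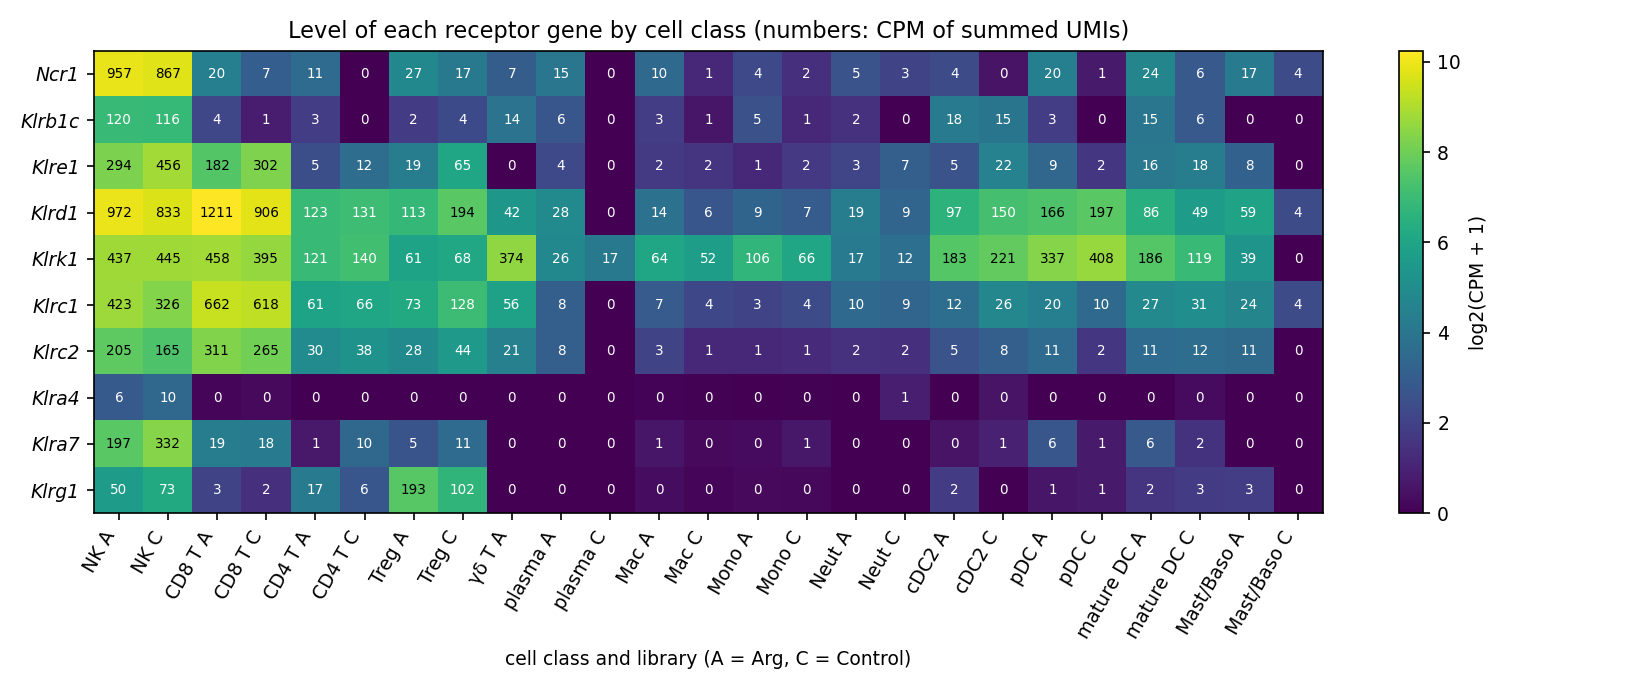
Level of each receptor gene (rows) in each cell class and library (columns; A, Arg; C, Control), as CPM of summed UMIs, printed in the cells and coloured as log2(CPM + 1). Ncr1, Klrb1c and Klra7 are brightest in the NK columns, and Klra4 is dim there (6 and 10 CPM) and dimmer in the other columns. The Klrd1, Klrk1, Klrc1 and Klrc2 rows are bright in the NK and CD8 T columns. Klrk1 and, less so, Klrd1 are also bright in the pDC columns. Klrg1 is brightest in the regulatory T (Treg) columns.

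Among the activating receptors, Ncr1 was at 957 CPM in Arg NK-like cells (939 to 975; 11100 UMIs) and 867 CPM in Control (844 to 890.1; 5391 UMIs). The next lymphoid class, regulatory T-like cells, had 26.8 and 16.6 CPM. NKp46 transcripts were thus far more abundant in NK-like cells than in any other lymphoid class, and below that the classes' intervals overlapped in Arg. Klrb1c, which encodes NK1.1, was at 120.4 and 116 CPM in NK-like cells and at most 14.1 CPM elsewhere among lymphoid classes. The antibody epitope of NK1.1 is known to be absent in BALB/c although the gene is transcribed.

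Klrk1, encoding NKG2D, the receptor for stress-induced ligands of the Raet1 and H60 families, was shared between killer lymphocytes. It stood at 437 and 445 CPM in NK-like cells and at 458 and 395 CPM in CD8 T-like cells, and the intervals of the 2 classes overlapped in Arg. Gamma-delta T-like cells had 374 CPM in Arg (280.2 to 489; 53 UMIs) and 215 in Control (111 to 376; 12 UMIs). CD4 T-like cells had 121 and 139.9 CPM and regulatory T-like cells 60.6 and 68.2 CPM.

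Klrk1 transcripts were also found outside the lymphoid classes. Plasmacytoid dendritic-like cells (pDC) had 337 CPM in Arg and 408 in Control, type 2 conventional dendritic-like cells (cDC2) 183 and 221, and monocyte-like cells 106 and 65.8. After each cell was thinned to 2000 UMIs, 90 of 180 Arg and 78 of 156 Control pDC had a Klrk1 UMI, against 17.2% and 10.7% of monocyte-like cells and 11.1% and 10.4% of macrophage-like cells. Unthinned, a UMI was found in 158 of 186 and 145 of 161 pDC. In monocyte-like cells the Arg over Control ratio of Klrk1 was 1.61 (1.51 to 1.72), past 1.5-fold. In this class 3.17% of 7290 genes were past it in either direction, 1.66% higher and 1.51% lower in Arg. The Klrk1 ratio was 1.56 (1.39 to 1.75) in mature dendritic-like cells, at 186 and 119 CPM, and 1.22 (1.12 to 1.31) in macrophage-like cells. Klrk1 was lower in Arg in pDC (0.828, 0.739 to 0.927) and cDC2 (0.830, 0.746 to 0.925). Klrd1 was also found in dendritic-like cells, at 166 and 197 CPM in pDC, 96.9 and 150 in cDC2 and 86.25 and 49.39 in mature dendritic-like cells. In macrophage-like cells it was at 13.7 and 5.76 CPM, below Klrk1 at 63.6 and 52.4 CPM.

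Klrc2 was at 205 and 165 CPM in NK-like cells and at 311 and 265 in CD8 T-like cells, and Klrc1 at 423 and 326 CPM in NK-like cells and 662 and 618 in CD8 T-like cells. Both NKG2 genes were thus higher in CD8 T-like than NK-like cells in each library. Klrd1, their partner, was at 972 CPM (954 to 990.2) and 833 CPM (810.1 to 856) in NK-like cells and at 1211 and 906 CPM in CD8 T-like cells. In CD4 T-like cells Klrd1 had 123 and 131 CPM, and in regulatory T-like cells 113 and 194 CPM. The B lineage had little of any of them, with Klrd1 at 28.3 CPM in Arg plasma-like cells and no UMI in Control ones.

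**Figure D2:**
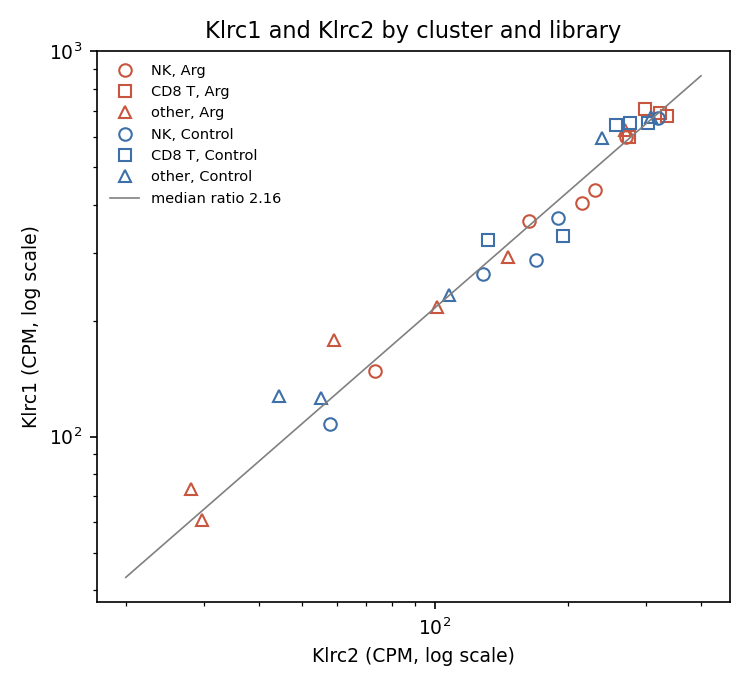
Klrc1 against Klrc2, both in CPM on log scales, in each lymphoid cluster and library with at least 50 Klrc1 UMIs (30 points; circles NK, squares CD8 T, triangles other clusters; the line is the median ratio). The ratios run from 1.70 to 3.02 around the line of 2.16.

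Over 30 combinations of cluster and library, the ratio of Klrc1 to Klrc2 UMIs ran from 1.70 to 3.02 with a median of 2.16, while the Klrc1 level itself ran from 60.7 to 706 CPM. The ratios were not all alike, since it was 1.88 (1.72 to 2.05) in L0 of Arg and 2.51 (2.37 to 2.65) in the CD8 T cluster L10 of Control. The shared windows near their transcript ends stand beside this value, and their part in it was not tested.

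The Ly49 genes were highest in NK-like cells among the named classes. Klra7, encoding the inhibitory Ly49G receptor for class I molecules, was at 197 CPM in Arg NK-like cells and 332 in Control, and at 19.4 and 18.2 CPM in CD8 T-like cells. Klra4, which in the reference strain encodes the activating Ly49D, had 74 UMIs in 48 Arg NK-like cells (6.38 CPM) and 63 UMIs in 37 Control ones (10.1 CPM). CD8 T-like cells had 1 Klra4 UMI in Arg and 3 in Control. After thinning 0 of 964 Arg CD8 T-like cells had one, which by the limit of 3 counts allows a share of cells with a UMI of up to 0.311%.

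Klrg1, an inhibitory receptor for cadherins that marks mature NK cells and effector T cells, had another distribution. It was at 49.7 and 73.1 CPM in NK-like cells, 3.32 and 1.65 CPM in CD8 T-like cells and 193 and 102 CPM in regulatory T-like cells. The regulatory T level was the highest of all classes in both libraries. Within NK-like cells, Klrg1 was at 212 and 228 CPM in cluster L14, 69.1 and 85.0 in L1, 31.0 and 40.8 in L0, 42.9 and 60.5 in L9, and 5.34 and 2.76 in L2.

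The libraries of the diets were then compared within NK-like cells. Klre1 and Klra7 were lower in the Arg library, Klrg1 was lower by less, and Klrc1, Klrc2, Klrd1 and Ncr1 were modestly higher. Klre1 encodes a lectin-like receptor reported to act with the Klri proteins. Its level was 294 CPM in Arg (3409 UMIs) and 456 CPM in Control (2836 UMIs), an Arg over Control ratio of 0.644 (0.613 to 0.678). The Klra7 levels of 197 and 332 CPM (2282 and 2067 UMIs) gave a ratio of 0.592 (0.557 to 0.628). The Klrg1 levels gave 0.680 (0.600 to 0.770). Both Klre1 and Klra7 were past a 1.5-fold difference on the log2(CPM + 5) scale, at −0.63 and −0.74, and Klrg1, at −0.51, was not.

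Of the 10 genes, 9 had a mean of at least 10 CPM in NK-like cells and were compared, Klra4 being below it. Of these, 5 were higher and 4 lower in Arg, and 2 were past 1.5-fold, both lower. Among all 7998 genes compared in this class, 1.56% were past 1.5-fold in either direction, 0.8% higher and 0.763% lower. The median log2 ratio of the 9 was 0.05, beside 0.01 over all genes.

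The remaining receptors differed by less. The ratio was 1.30 (1.23 to 1.37) for Klrc1, 1.24 (1.15 to 1.34) for Klrc2, 1.17 (1.13 to 1.21) for Klrd1 and 1.10 (1.07 to 1.14) for Ncr1. For Klrk1 it was 0.981 (0.936 to 1.03) and for Klrb1c 1.04 (0.947 to 1.14), and both intervals included 1.

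**Figure D3:**
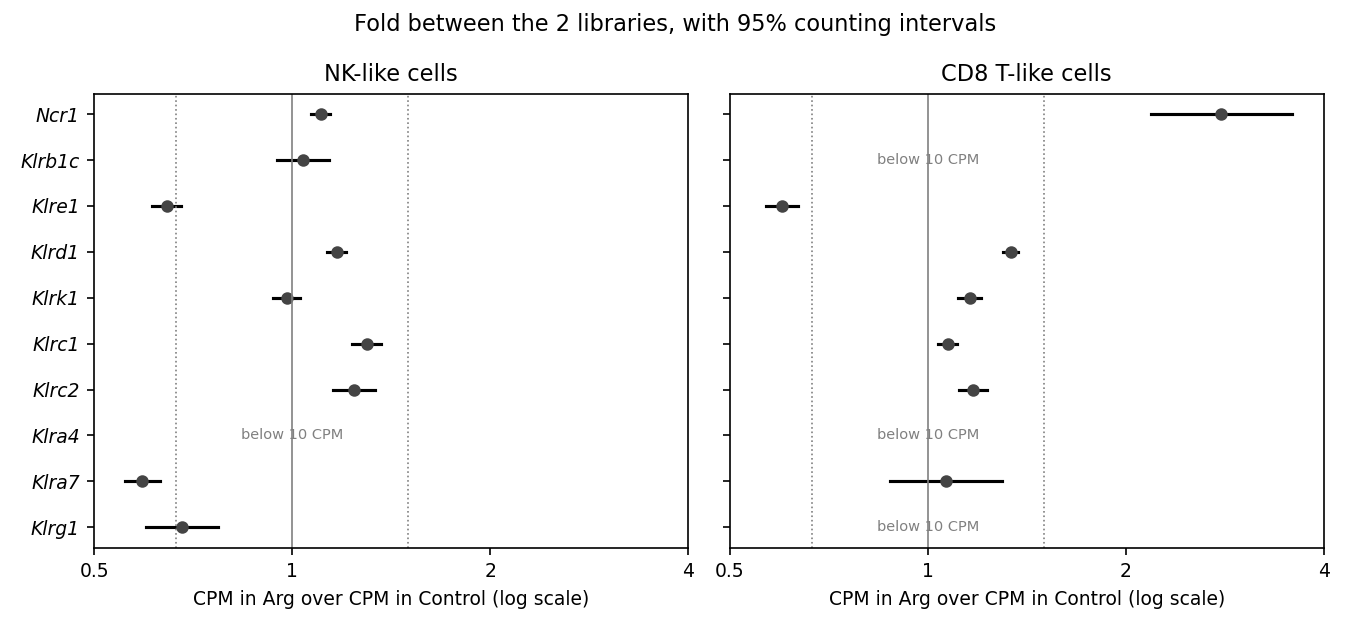
Ratio of CPM in Arg over Control for each receptor gene in NK-like (left) and CD8 T-like (right) cells, on a log axis; points are ratios, bars 95% counting intervals, dotted lines 1.5-fold either way. Klre1 lies left of the lower dotted line in both classes and Klra7 in NK-like cells, while Ncr1 in CD8 T-like cells lies at 2.79 with few UMIs.

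The clusters were represented unequally, since L0 made up 710 of 1421 Arg and 277 of 734 Control NK-like cells, L1 22.7% and 36.6%, and L2 20.4% and 14.7%. Levels were therefore also compared cluster by cluster. Klra7 was lower in Arg in 5 of 5 clusters, with each interval below 1. It was at 282 and 367 CPM in L0, 284 and 384 in L1, 48.4 and 102 in L2, 109 and 340.2 in L9, and 70.6 and 285 in L14. The ratio ran from 0.247 in L14, with only 23 and 21 cells, to 0.770 in L0, so the difference was smallest in the largest cluster. Klre1 was lower in Arg in 5 of 5 clusters, with ratios from 0.605 to 0.841 and 4 intervals below 1. Its levels were 394 and 578 CPM in L0, 302 and 494 in L1, 198 and 328 in L2, 271 and 407 in L9, and 166 and 198 in L14.

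Klrd1 was higher in Arg in all 5 NK clusters (ratios 1.13 to 1.23, every interval above 1), and so was Ncr1 (1.03 to 1.23, 3 intervals above 1). Klrc1 was higher in 4 of 5, with 2 intervals above 1, and in L0 its interval included 1 (1.09, 0.989 to 1.21). The exception was L2, the low-Eomes cluster and the one with the highest Klrc1. There Klrc1 was at 599.9 CPM in Arg and 672 in Control (0.892, 0.806 to 0.990). Klrc2 was also higher in 4 of 5 with 2 intervals above 1. Its ratio was 1.13 (0.984 to 1.31) in L0 and 0.848 (0.731 to 0.988) in L2. Klrg1 was lower in 4 of 5, with 1 interval below 1. Klrk1 was lower in 4 of 5, with intervals below 1 in L2 (0.789, 0.707 to 0.881) and L9 (0.826, 0.727 to 0.939). Klrb1c had 1 interval below 1, in L2 (0.756, 0.585 to 0.986).

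**Figure D4:**
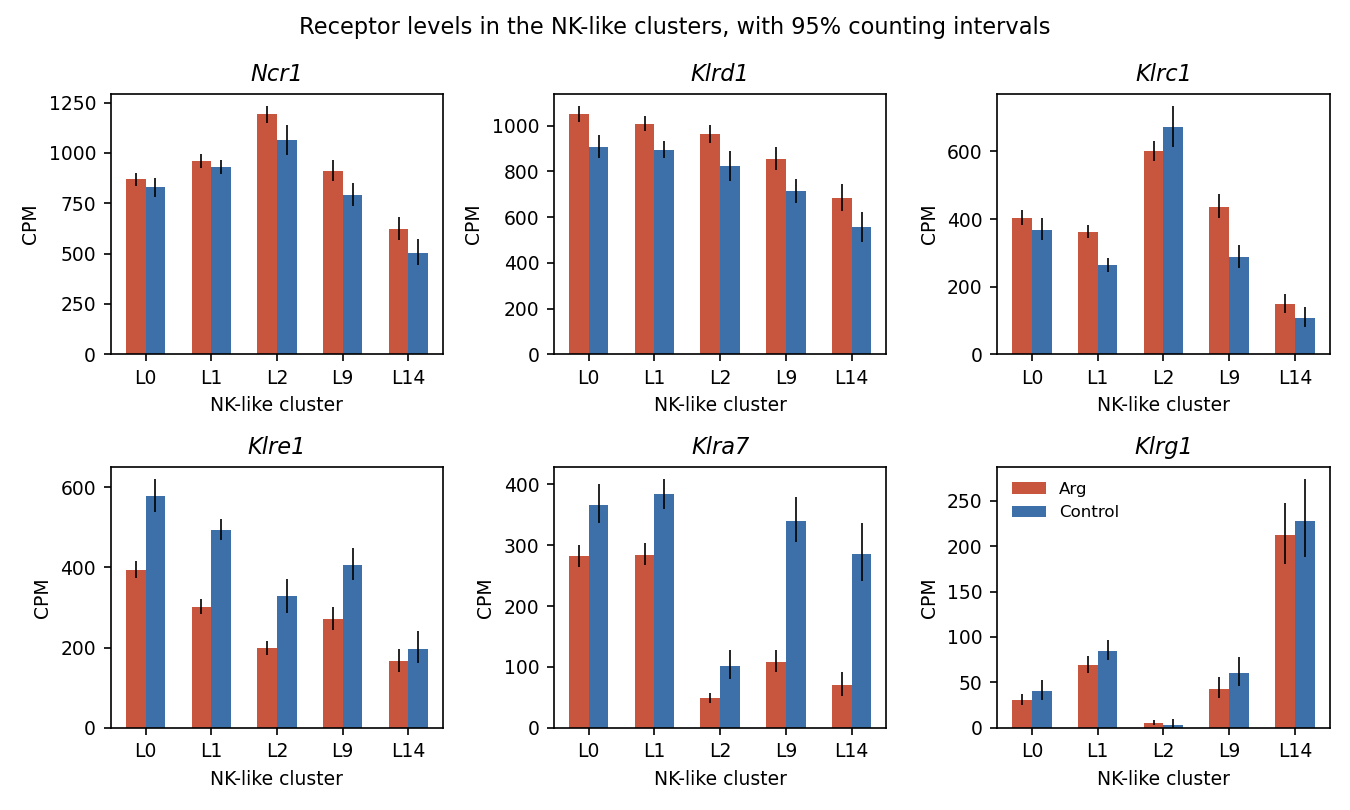
Levels (CPM) of 6 receptor genes in the 5 NK-like clusters in Arg (red) and Control (blue), with 95% counting intervals. Klra7 and Klre1 bars are lower in Arg in each cluster and Klrd1 bars higher, and L2 has the lowest Klra7 and the highest Klrc1.

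With the clusters weighted alike in both libraries, the log2 ratios in NK-like cells were −0.62 for Klre1, −0.62 for Klra7, −0.25 for Klrg1, −0.15 for Klrk1 and 0.19 for Klrc1. Without cluster L2 they were −0.55 for Klre1, no longer past 1.5-fold, and −0.59 for Klra7. With cells gated one by one on markers instead of clustered, they were −0.10 and −0.27, and with a narrower gate of 682 and 241 cells −0.33 and −0.52. All 4 of these gate values were below 0 and none was past 1.5-fold.

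The lower Klra7 level lay mainly in how many cells had the transcript. After thinning to 2000 UMIs, 18.8% of Arg NK-like cells (16.8 to 21.0; 259 of 1376) and 28.2% of Control ones (24.9 to 31.6; 201 of 714) had a Klra7 UMI, with 45 and 20 shallower cells left out. Cells with a UMI held 2.36 and 2.45 on average. For Klre1 the share was 48.2% (45.5 to 50.9) against 60.1% (56.4 to 63.7), and the mean in cells with a UMI 1.52 against 1.73. Without thinning the Klra7 shares were 25.7% and 39.5%, and the Klre1 shares 77.5% and 87.2%. In macrophage-like cells, which should lack both, the thinned shares were at most 0.11% for Klra7 and 0.65% for Klre1. Median depths were 6301 and 6913 UMIs in NK-like cells and 13590.0 and 14950.0 in macrophage-like cells.

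The other thinned shares in NK-like cells followed the levels. Ncr1 was found in 76.5% and 75.9% of cells (90.3% and 93.2% unthinned), Klrd1 in 81.8% and 76.9%, and Klrk1 in 57.8% and 59.1%. The inhibitory Klrc1 was found in 49.6% and 40.9%, Klrc2 in 33.2% and 25.5%, and Klrb1c in 25.8% and 24.0%. Klrg1 was found in 6.03% and 9.94% and Klra4 in 1.31% and 1.82%. The median number of different members per thinned NK-like cell was 4 in both libraries, and 86.4% and 85.4% of cells had at least 3.

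**Figure D5:**
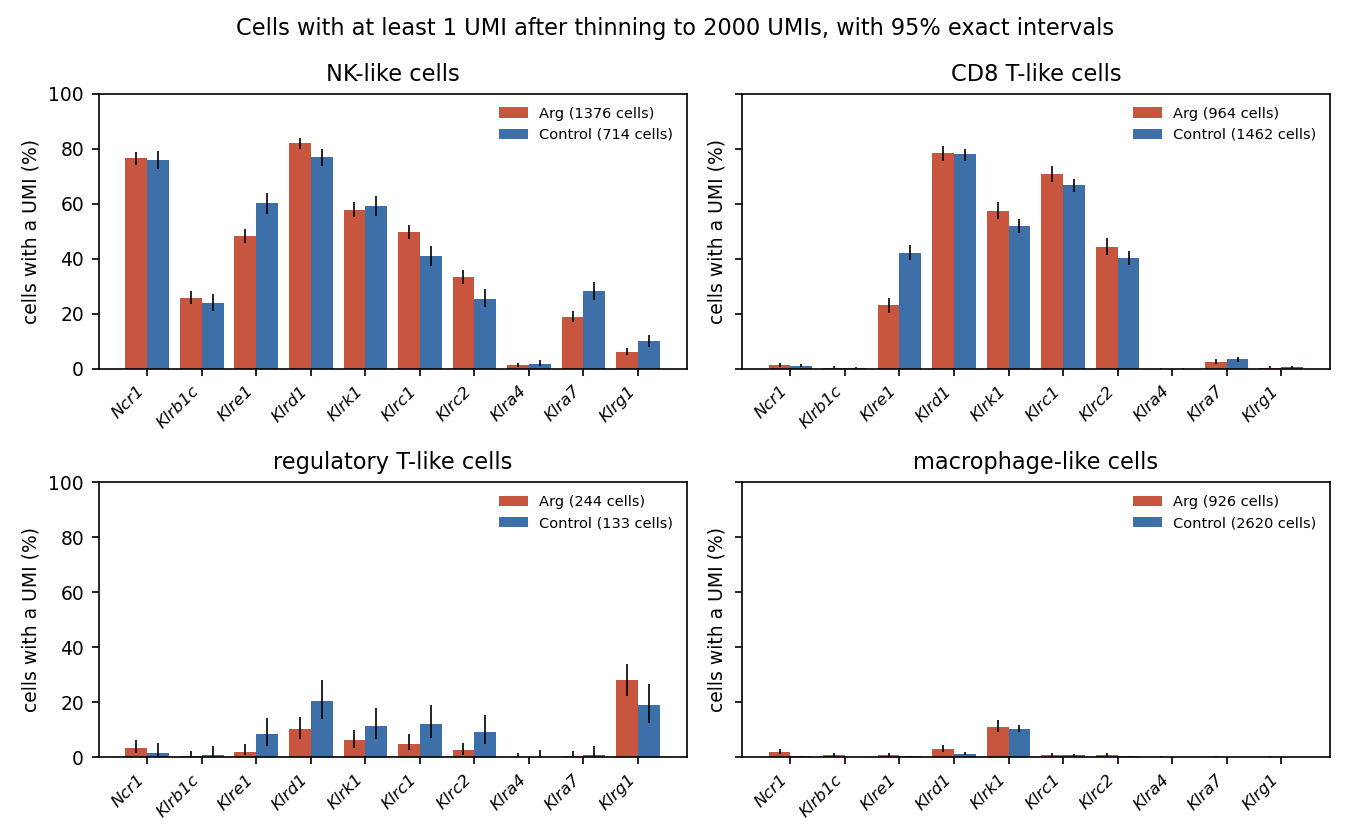
Percent of cells with at least 1 UMI of each receptor gene after thinning to 2000 UMIs, in 4 cell classes, Arg red and Control blue, with 95% exact binomial intervals. Klre1 is lower in Arg in NK-like and CD8 T-like cells, Klra7 in NK-like cells, and macrophage-like cells show only Klrk1 above a few percent.

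Klra7 and Klrc1, both genes of inhibitory receptors, were then set against each other cell by cell after thinning. The shares of cells with a Klra7 UMI among those with and without a Klrc1 UMI were 14.9% (12.3 to 17.8; 102 of 683 cells) and 22.7% (19.6 to 26.0; 157 of 693) in Arg. They were 24.3% (19.5 to 29.7) and 30.8% (26.4 to 35.5) in Control. Within L0 they were 16.2% and 31.8% in Arg and 29.9% and 37.8% in Control. The intervals of cells with and without Klrc1 did not overlap in Arg and overlapped in Control, in the whole class and within L0.

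In CD8 T-like cells, Klre1 was again lower in Arg, and Klrd1, Klrk1 and Klrc2 were higher. Klre1 was at 182 CPM in Arg (1638 UMIs) and 302 in Control (4406 UMIs), a ratio of 0.600 (0.567 to 0.636). The ratio was 1.34 (1.30 to 1.37) for Klrd1, 1.16 (1.11 to 1.21) for Klrk1, 1.17 (1.12 to 1.23) for Klrc2 and 1.07 (1.04 to 1.11) for Klrc1. Klra7, at 19.4 and 18.2 CPM, had a ratio of 1.07 (0.876 to 1.30) that included 1. Its direction turned with clusters weighted alike (log2 −0.37), and in cluster L7 the ratio was 0.655 (0.455 to 0.962), while L4 had 16 UMIs in Arg and 0 in Control. Klrb1c, Klra4 and Klrg1 were below 10 CPM.

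Of the 7 genes compared in CD8 T-like cells, 6 were higher, with Klra7 of turning direction among them, and 1 lower in Arg. Klre1 (log2 −0.72) and Ncr1 (1.04) were past 1.5-fold, where 5.58% of 7997 genes were past it, 2.88% higher and 2.7% lower. The median of the 7 was 0.21, beside −0.01 over all genes. Summed over this class, the 12 NK markers stood at 4311 CPM in Arg and 3936 in Control (8 of 12 higher in Arg, none at 0). Monocyte markers stood at 1831 and 1327 (7 of 8 higher; Ace at 0) and gamma-delta T markers at 23.8 and 134 (2 of 5 higher). Their part in the receptor values was not tested. Different clusters held most of this class in the 2 libraries. Cluster L10 had 53 Arg and 865 Control cells and the cycling L11 106 and 323, whereas L7, with the granzymes Gzmd and Gzme, had 470 and 102, and L4, with Gzmk and Lef1, 362 and 178.

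Within those clusters, Klre1 was lower in Arg in L10 (261 and 366 CPM), L11 (214 and 288) and L7 (232 and 312), and at 33.0 and 25.1 CPM in L4, where the interval of the ratio included 1. With clusters weighted alike the log2 ratio of Klre1 was −0.43, and without L4 it was −0.54, neither past 1.5-fold. Klrd1 was higher in Arg in each of the 4 clusters, with ratios from 1.18 to 1.43. The other 3 differed most in L4, at 1.85 (1.64 to 2.09) for Klrc1, 2.08 (1.73 to 2.52) for Klrc2 and 1.62 (1.43 to 1.84) for Klrk1. In L7, L10 and L11 the Klrc1 ratios ran from 1.04 to 1.10, and each interval included 1. There Klrc2 ran from 1.10 to 1.17 and Klrk1 from 0.981 to 1.13. The share of thinned CD8 T-like cells with a Klre1 UMI was 23.03% (20.4 to 25.8) in Arg and 42.2% (39.7 to 44.8) in Control, and 55.6% and 78.2% unthinned.

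The Ncr1 value in CD8 T-like cells rested on few cells. There were 183 UMIs in 49 of 1006 Arg cells and 106 UMIs in 34 of 1493 Control cells (20.3 and 7.27 CPM; ratio 2.79, 2.18 to 3.58), and 10 cells held 69.4% and 74.5% of them. Thinned shares were 1.24% and 1.03%, beside 1.84% and 0.305% in macrophage-like cells. Ncr1 was also higher in Arg in macrophage-like cells (10.2 and 1.27 CPM), mature dendritic-like cells (24.0 and 6.23) and pDC (20.3 and 0.687). The CD8 T share was thus below the macrophage-like one in Arg and above it in Control. The part of free RNA or of unrecognised doublets in the CD8 T value was not tested.

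Regulatory T-like cells had more Klrg1 in Arg and less of several NK lectin genes. Klrg1 was at 193 CPM in Arg (176 to 211; 468 UMIs) and 102 in Control (85.4 to 122; 129 UMIs), a ratio of 1.89 (1.55 to 2.31). A UMI was found in 27.9% (22.3 to 34.0) and 18.8% (12.6 to 26.5) of thinned cells, with overlapping intervals, and in 57.3% and 38.3% unthinned. In macrophage-like cells the thinned share was at most 0.108%. Klrg1 on regulatory T cells is known to mark effector-like, tissue-dwelling cells.

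The NK lectin genes went the other way in these cells. Klre1 was at 18.5 and 65.0 CPM (ratio 0.285, 0.194 to 0.415), Klrd1 at 113 and 194 (0.579, 0.486 to 0.691) and Klrc1 at 73.0 and 128 (0.572, 0.459 to 0.712). In this class 6.87% of 8262 genes were past 1.5-fold, 2.92% higher and 3.96% lower. The 12 NK markers summed to 1479 CPM in Arg and 1831 in Control with 4 of 12 higher in Arg and none at 0, and the CD8 T markers to 1077 and 1198 with 1 of 4 higher. The part of admixed NK or CD8 T transcripts in the lower lectin levels was not tested.

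In CD4 T-like cells, Klrd1, Klrk1, Klrc1 and Klrc2 had ratios from 0.792 to 0.935 with intervals that included 1. Klrg1 was at 17.4 and 5.77 CPM, from 27 UMIs in 12 Arg cells and 4 UMIs in 3 Control cells, and its ratio of 3.02 (1.05 to 11.9) rests on these few cells. In this class 13.2% of 7990 genes were past 1.5-fold, 5.78% higher and 7.45% lower in Arg. Some unnamed clusters carried NK transcripts as well. Cluster L17 (18 and 68 cells) had Ncr1 at 369.9 CPM, Klrd1 at 989.8 and Klre1 at 479 in Control, and its Arg cells were too few for a level. Cluster L16 had Ncr1 at 299 and 123 CPM and Klrd1 at 501 and 221, and cluster L5 had Ncr1 at 163 and 118 and Klra7 at 208 and 116, so Klra7 was higher in Arg in L5.

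The genes around these receptors were described from lists of relatives, partners and ligands. Of 16 other NK lectin genes counted, 9 were compared in NK-like cells, 4 higher and 5 lower in Arg, with a median log2 ratio of −0.18. Of the other Ly49 genes compared, Klra5 was at 18.8 and 36.5 CPM, lower in Arg like Klra7 and past 1.5-fold. Klra3, the most abundant of them, went the other way at 413 and 367 CPM (ratio 1.125, 1.07 to 1.18). Klra1 was at 29.0 and 33.4 CPM, and the interval of its ratio included 1. Klrb1b, an inhibitory receptor for Clec2d, was at 40.5 and 21.9 CPM, higher in Arg and past 1.5-fold. Klrc3 was at 39.0 and 27.7 CPM and Klrb1f at 193 and 149. Klra6 had no UMI in NK-like cells.

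The signalling adaptors differed little. All 16 adaptor and signalling genes were compared, 10 higher and 6 lower in Arg, none past 1.5-fold, with a median of 0.06. Hcst, which encodes the NKG2D partner DAP10, was at 203 and 176 CPM, Fcer1g, the NKp46 partner, at 1042 and 879, Vav1 at 45.8 and 36.2 and the phosphatase gene Ptpn6 at 47.1 and 56.3. Of 17 ligand genes named, 13 were counted, and Raet1a, Raet1b, Raet1c and H60a were not among the genes counted. Of the 10 compared, 7 were higher and none past 1.5-fold (median 0.04). H60c had no UMI in NK-like cells. The NKG2D ligand gene Raet1e was at 96.8 and 70.4 CPM. Whether tags of its uncounted relatives were listed under Raet1e, here or in other classes, was not tested.

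Among 12 other activating or inhibitory receptors in NK-like cells, 5 were higher and 7 lower (median −0.04). The activating Cd226 was at 135 and 85.7 CPM and the inhibitory Havcr2 at 22.1 and 41.2, both past 1.5-fold. Crtam was at 26.7 and 37.3 CPM and Lag3 at 27.4 and 19.5. Of 11 NK regulators, 6 were higher and 5 lower, with none past 1.5-fold (median 0.06), and Eomes was at 219.8 and 260.1 CPM, Tbx21 at 182 and 159.6, Nfil3 at 94.5 and 117 and Gata3 at 77.5 and 63.7.

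Genes of tissue residency and of circulation gave no single direction. Of 6 residency genes compared, 3 were higher and 3 lower (median −0.09), with Cxcr6 at 39.7 and 20.7 CPM past 1.5-fold and Rgs1 at 819.6 and 1056. Of 6 genes of circulation and maturity, 4 were higher and 2 lower (median 0.17). Ly6c2 was at 269 and 154 CPM and Cma1 at 15.4 and 8.36, both past 1.5-fold, and Klf2 was at 364 and 514. Ly6c2 is also a monocyte marker. In Arg NK-like cells 5 of 8 monocyte markers were higher than in Control, with the lower sum given above, and their part in the Ly6c2 value was not tested.

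In CD8 T-like cells the same lists gave these values. The other NK lectin genes had a median log2 ratio of 0.35 over 5 genes, with Klrc3 at 39.2 and 16.0 CPM, past 1.5-fold. The other receptors had a median of 0.35 over 12 genes, 9 of them higher in Arg, and Havcr2 was at 318 and 175 CPM. The ligands' median was 0.23 over 8 genes, with Raet1e at 91.5 and 51.9 CPM, and the adaptors' was −0.08 over 13.

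Likeness was measured as the Pearson correlation of log2(CPM + 5) over 24 points, each a class in a library with at least 50 cells, among 6832 other genes. The points share libraries and cell types, and the values are descriptive. The genes most like Ncr1 were Car2 (0.968), Trdc (0.965), Klrb1a (0.937), Gzma (0.923) and Gzmg (0.917). Gzma is among the markers that named the NK-like class, so its likeness to Ncr1 was partly built in. Among the classes given above, Ncr1 was high only in NK-like cells, so its values rest on the difference between that class and the rest. Those most like Klrd1 were Zfp983 (0.901), Ctsw (0.901), Il12rb2 (0.898), B4galnt1 (0.876) and Rnf166 (0.875). Klrg1 had lower values, the highest being Ppm1b (0.832), Zfp52 (0.822), Gm28112 (0.818), Tigit (0.811) and Mmd (0.811).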

How the data were processed

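The deposited values are raw counts, the UMIs of each gene in each barcode, for 1 Arg and 1 Control library. Cell Ranger 7.0.1 made the matrices per the file headers. Version 2.2.2 and GRCm38 stand in the submitters' processing notes, and which version applies is not known. The treatment of intronic reads is not stated in the sources used here. The libraries held 14540 and 14343 barcodes with 155927693 and 191505551 UMIs.

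Barcodes needed 200 genes, 500 UMIs and no more than 10% of UMIs from mitochondrial genes, which 13875 and 13487 met. Scrublet, expecting 8% doublets, marked 947 (6.83%) and 751 (5.57%), and these were dropped. Counts were scaled to 10000 UMIs per cell, log-transformed and clustered on 2000 variable genes, without the 10 receptor genes, with 30 principal components, 20 neighbours and the Leiden method at resolution 1. Lymphoid clusters, numbered L0 onward, were clustered again by themselves. A cluster took the name of the marker set with the highest score, provided at least 3 markers were each found in 20% of its cells. The thresholds for naming, among them a defining marker in at least 50% of T cells of a class and Cd3e in under 20% of NK cells, were chosen with the clusters in view. They left a CD8-positive cluster, L8 (126 and 148 cells), unnamed.

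Counts were summed per class and library and divided by the class total (CPM). Log2 ratios were taken after adding 5 CPM. Within classes, genes with a mean of at least 10 CPM were compared where each library had 100 or more cells of the class. Single clusters were compared where each library had at least 20 cells, with no limit on the mean CPM. A difference past 1.5-fold is a size, not a test, and with 1 library per group no p-value was made. CPM have exact Poisson intervals, ratios exact conditional ones, and shares Clopper-Pearson ones. Where a share is 0, the limit is 3 counts of the total. The interval script was tested on simulated data. The software was Python 3.11.15 with scanpy 1.11.5, numpy 2.4.6, scipy 1.17.1, pandas 2.3.3 and matplotlib 3.10.9. TMM factors came from edgeR 4.0.16 under R 4.3.3. Annotation was GENCODE M21 and promoters came from RefSeq (GRCm38.p6).

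All 10 receptors are named. Of each other list, the text names at most the 4 genes with the largest absolute log2 ratio in NK-like cells, and any at 0. Ligand genes that were not counted are named as well, and so are the Ly49 genes Klra1 and Klra3. The members and lists were chosen with earlier results of these data known. The weighting of clusters, the narrower gate and the removal or addition of single clusters were added as alternatives after the data had been seen. Some items are not reported here.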

Additional observations from a re-analysis of the deposited data

Results flagged for a closer look

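In regulatory T-like cells several receptor genes went against their direction in NK-like or CD8 T-like cells, with counting intervals that excluded 1 on each side. Each class gave 1 value per library, and the difference between classes was not tested. The differences in log2 ratio between NK-like and regulatory T-like cells were 0.98 for Klrd1, 1.14 for Klrc1 and 0.88 for Klrc2, all higher in Arg in NK-like cells and lower in regulatory T-like cells. Between CD8 T-like and regulatory T-like cells they were 1.18 for Klrd1, 0.87 for Klrc1 and 0.81 for Klrc2. Klrg1 went the other way, lower in Arg in NK-like cells and higher in regulatory T-like cells (a difference of 1.40) and in CD4 T-like cells (1.57, on 27 and 4 UMIs).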

How the results depend on the processing

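No paired analysis was possible because each diet had 1 library, and no replicate could be left out. Over 17 other settings, 233 values of single receptor genes were recomputed, and 179 moved by less than their counting interval, 54 by more, and no value past 1.5-fold changed sign. In NK-like cells Klre1 ran from −0.65 to −0.10 and Klra7 from −0.75 to −0.27. In CD8 T-like cells Klre1 ran from −0.93 to −0.43 and Ncr1 from 0.33 to 1.39. The median log2 ratio of the receptors in NK-like cells, 0.05, was 0.47 with the marker gate per cell (2927 and 1231 cells), whose list includes Tyrobp and Fcer1g, also transcribed in myeloid cells. It was 0.14 with the gate without these and Nkg7, and −0.03 with clusters weighted alike. In CD8 T-like cells the median of 0.21 was 0.069 at Leiden resolution 0.5, 0.14 with the receptors among the clustering genes and 0.15 with the marker gate; the cause was not tested. The log2 ratio of the Klre1 share in NK-like cells, −0.32, was −0.17 without thinning, and the cause was not tested. The share of genes past 1.5-fold in CD8 T-like cells, 5.58%, was 3.18% with no filter on low levels, which adds genes with few UMIs. By the marker gate, 4 and 5 receptors were higher in NK-like than CD8 T-like cells, against 6 and 7. TMM scaling shifted log2 ratios by less than 0.01. Depth limits Klra4, Klrb1c outside NK-like cells, and gamma-delta T-like cells.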
